A study of Bos taurus with 6 samples.

Results

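The mitochondrial CpGs were all rows of the 6 methylation files that lie on the mitochondrial sequence of the cattle assembly UMD3.1.1. They were chosen by sequence name alone, and comprised 1088 of the 38416464 CpG cytosines seen in any library. Each row is 1 cytosine, so that the 2 strands of a CpG stand at neighbouring positions p and p+1, here called the first and the second row. The files do not name the strands, and no sequence of this build was used.

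The libraries were whole-genome bisulfite sequencing (WGBS) of rumen epithelial primary cells (REPC), cultured from the lining of the rumen. All came from 1 Holstein bull calf, aged 2 weeks and fed only milk replacer. Control cells (3 libraries, replicates 1 to 3) received no butyrate per the labels, and butyrate-treated cells (3 libraries) were exposed to 5 mM butyrate, a short-chain fatty acid and histone deacetylase inhibitor, for 24 h. Replicates were therefore not separate animals, and an exact permutation p-value measures only the spread between these libraries. The p-values of logistic regression, used for single rows and windows, take all reads as independent and leave out that spread. The rumen origin could not be checked by markers, since the files hold methylation alone. Bisulfite turns unmethylated cytosine into uracil, and reads that still carry C at a CpG were counted as methylated. The level is the share of methylated reads among all reads, so that any cytosine left unconverted raises it.

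Mitochondrial DNA is a small circular genome, present in many copies per cell and packed without histones. Its strands are called heavy and light by their base composition, and it encodes subunits of the respiratory chain with the rRNAs and tRNAs that translate them. RefSeq lists 37 mitochondrial genes for the cattle assembly ARS-UCD2.0, of which 13 encode proteins such as ND1, COX1, ATP6 and CYTB, 2 encode rRNAs and 22 encode tRNAs. Whether mammalian mitochondrial DNA carries 5-methylcytosine at CpGs is debated. Because the assembly of that list differs from that of the files, CpGs were not assigned to genes here.

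The mitochondrial rows were far deeper than the rest of these shallow libraries. Of 18793438 to 23842285 CpG reads per library, 48882 to 61140 were mitochondrial, which was 0.205% to 0.295%. The mean depth over the mitochondrial rows was 73.0 to 105 times that over the autosomal rows. No CpG row of any library, nuclear or mitochondrial, had more than 221 reads, and the deepest mitochondrial row had 182 to 203. Depth of the same row differed between replicates of a group by about as much as counting error or less (chi-square over degrees of freedom 0.581 to 1.13). Whether processing limited the depth was not tested. The levels of replicates did differ beyond counting error, as given below, and all 6 libraries were kept as separate replicates.

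Not all rows behaved as 1 strand of a CpG. In total, 702 rows were covered in all 6 libraries, whereas 189 were seen in 1 library alone. Rows with 12 or more reads over all libraries numbered 707. Of these, 26 had no clear partner and held 2.91% of the reads. The others, with 23 shallower neighbours, gave 352 pairs taken as CpGs with both strands, or 704 rows, which held 96.8% of the reads. Some pairs broke with their neighbours in depth. For example, 1 had 641 first-row and 12 second-row reads between pairs with 5 and 2 first-row reads. Another had 553 and 20 reads, and a further one 85 and 14. Whether such rows are the strand they are called could not be checked without the sequence, and they were kept. The other 358 rows had a median of 2 reads in all libraries together and held 0.275% of the reads, with a level of 1.53% to 5.17% per library. Levels over all rows used every member, and comparisons by strand used the 352 CpGs.

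The mitochondrial level was low in every library. Over all rows, control replicates 1, 2 and 3 had 9.48%, 6.95% and 8.48%, and butyrate replicates 1, 2 and 3 had 11.2%, 8.10% and 8.90%. In the order of replicates 1, 2 and 3, values of single libraries are given in the same way below. On chromosomes 1 to 29 and X the level was 65.85% to 66.6% in the same libraries, and on unplaced scaffolds 61.0% to 63.05%. The mitochondrial level was lower than that of the chromosomes in 6 of 6 libraries, with a mean difference of -57.4 percentage points (SD 1.29, n = 6, two-sided exact sign-flip permutation p = 0.03125, the smallest that 6 libraries allow, and 0.0365 after Benjamini-Hochberg adjustment over 14 such comparisons within libraries). Among rows with 10 or more reads the mean difference was -58.1 points (exact permutation p = 0.03125).

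The strands were read to very different depths. Second rows held 3.54 to 4.76 times as many reads as first rows in every library, a mean log2 ratio of 2.02 (SD 0.16, n = 6, exact permutation p = 0.03125). Control libraries had a median first-row depth of 15, 13 and 19 reads, and butyrate libraries one of 15, 25 and 24 reads. The median depth of second rows was 114 to 139 reads. Second rows were the deeper ones at 337 of the 352 CpGs. In nuclear CpGs with both strands seen, the ratio was near even, with a log2 ratio of second to first rows of about -0.06 in each library. This is a sum over all nuclear pairs, so it does not show whether single nuclear loci differ by strand.

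First rows were also more methylated than second rows. First rows had 13.01%, 9.24% and 10.2% in the control libraries and 15.8%, 10.1% and 10.6% in the butyrate libraries. Second rows had 8.58%, 6.396% and 8.01% in the control libraries and 10.05%, 7.47% and 8.30% in the butyrate libraries. Both strands were highest in butyrate replicate 1 and lowest in control replicate 2. Second minus first rows was -5.76 to -2.18 points and negative in 6 of 6 libraries (mean -3.36 points, SD 1.43, exact permutation p = 0.03125). The difference was -1.20 points without the deepest 10% of the rows, -2.22 points from rows with 10 or more reads, and -5.98 points as an unweighted mean over rows with 10 or more reads. Nuclear CpGs had 66.4% to 67.2% on first and 66.7% to 67.5% on second rows. The mitochondrial strand difference minus the nuclear one was -3.67 points (SD 1.40, n = 6, exact permutation p = 0.03125). The nuclear levels were summed over all pairs, in which differences of single loci in opposite directions cancel. This comparison therefore adds little to the mitochondrial strand difference itself.

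**Figure D1:**
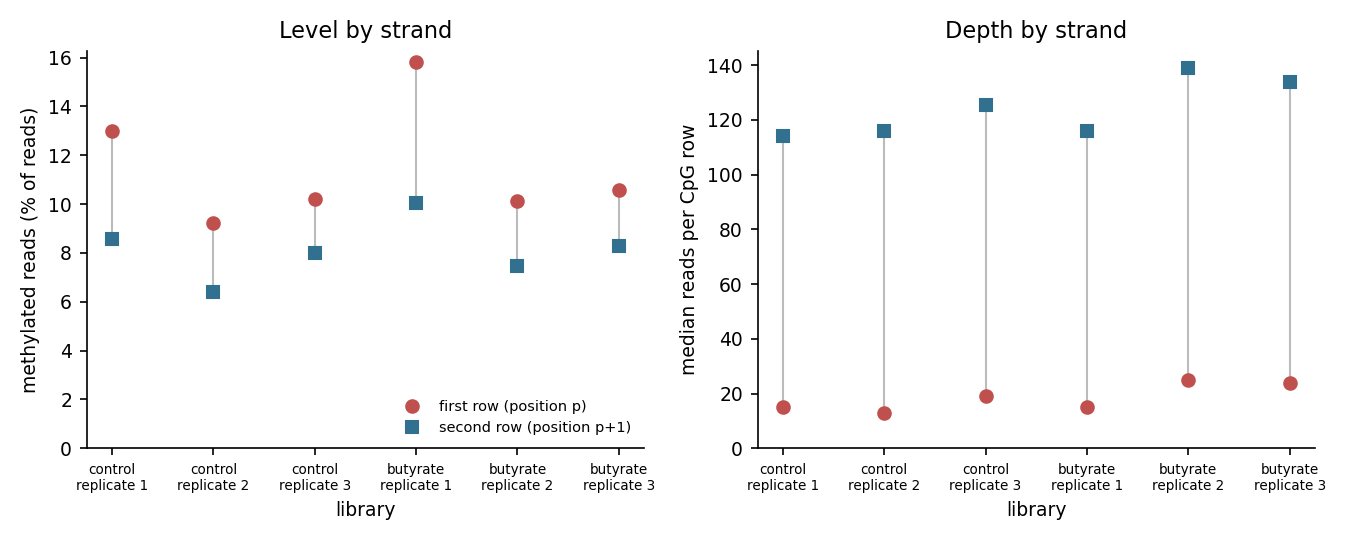
Methylation level (left, % of reads) and median depth (right, reads per row) of the first and second rows of 352 mitochondrial CpGs in each of the 6 libraries; grey lines join the strands of a library. First rows had the higher level (9.24% to 15.8% against 6.396% to 10.05%) and the lower depth (13 to 25 against 114 to 139 reads) in every library.

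First rows had their highest levels where they were shallowest. They were divided by their reads over all libraries into 4 depth classes of 88 rows. The shallowest class, with 1 to 39 reads in all, had a level of 35.05% ± 8.58 in control cells and 37.3% ± 17.1 (SD, n = 3) after butyrate. The next class, with 39 to 112 reads, had 26.7% ± 5.33 and 26.3% ± 9.51 (SD, n = 3). In the third class, with 114 to 260 reads, the level was 10.1% ± 1.61 and 11.6% ± 3.36 (SD, n = 3). The deepest class, with 261 to 824 reads, had 7.56% ± 1.09 and 8.73% ± 1.46 (SD, n = 3), close to the level of the second rows. The level thus fell at each step of depth in both group means. Single rows of the shallowest class varied widely, with a median of 31.9% and the middle 80% of rows between 2.92% and 90.9%.

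To keep the reads that gave a level from setting its depth class, the classes were also taken from the other 5 libraries. Row depth was much alike between replicates, so that this removes only the counting error of the library itself. A row short of unmethylated reads in all libraries is still both shallow and high. The deepest minus the shallowest class of first rows was then negative in 6 of 6 libraries (mean -29.1 points, SD 12.4, range -50.6 to -18.55, exact permutation p = 0.03125). Second rows showed no such fall. Their deepest class lay above their shallowest by a mean of 1.08 points (SD 0.43, n = 6, exact permutation p = 0.03125), which did not pass between the deepest and shallowest 10% of rows (1.54 points, exact permutation p = 0.0625). In classes by reads over all libraries, the level of second rows was 5.54% to 10.98% in single libraries. With both strands in one ranking, the deepest minus the shallowest class was -20.3 points (SD 7.25, n = 6, exact permutation p = 0.03125). Second rows were nearly always the deeper ones, so that this ranking mixes depth with strand and is not a contrast of depth alone. 

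**Figure D2:**
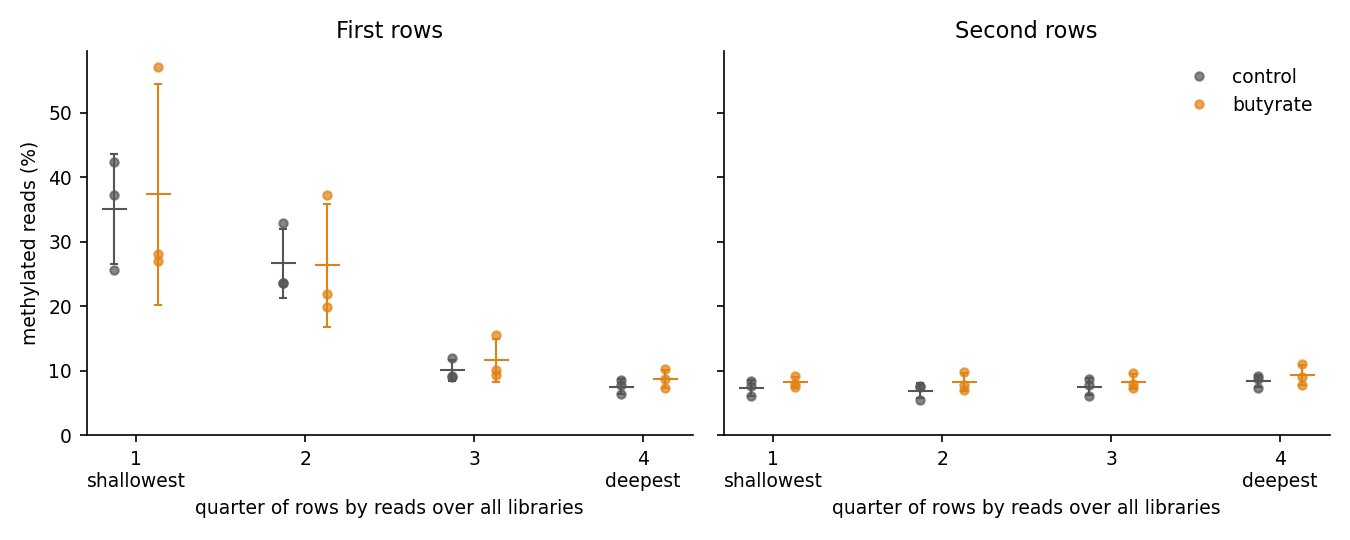
Methylation level (%) of first rows (left) and second rows (right) in 4 equal classes of rows by reads over all libraries; points are the 3 control and 3 butyrate libraries, and bars are the mean ± SD. First rows fell from a group mean of 35.05% or more in the shallowest class to 8.73% or less in the deepest, whereas second rows stayed between 5.54% and 10.98%.

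Within CpGs, the strand difference followed the depth of the first row. With classes from the other 5 libraries, second minus first rows was -30.2 points (SD 12.4, n = 6) where first rows were shallowest, -17.2 points (SD 6.05) in the second class and -2.73 points (SD 1.68) in the third. All 6 libraries were negative in each of these classes (exact permutation p = 0.03125 each). Where first rows were deepest, the difference was 0.594 points (SD 0.405, n = 6) and positive in 5 of 6 libraries (exact permutation p = 0.0625, 0.0673 after adjustment). Second rows opposite the 4 classes of first rows, ranked over all libraries, had pooled levels of 7.02%, 8.50%, 8.09% and 8.79%. Second rows were thus lowest opposite the shallowest first rows. They varied little beside the first rows, so that these strand differences mostly restate the levels of first rows by depth.

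The counts behind these levels moved unequally. From the shallowest to the deepest class of first rows, the mean number of unmethylated reads per row and library rose from 2.14 through 8.95 and 27.02 to 66.8. The mean number of methylated reads rose from 1.17 through 3.12 and 3.21 to 5.92. The unmethylated reads thus varied far more than the methylated ones. The classes were ranked by the sum of both counts, mostly unmethylated reads, so that part of this rise follows from the ranking. For second rows, unmethylated reads rose from 63.8 to 146.0 and methylated reads from 5.37 to 14.2. Across the 352 CpGs the level of first rows correlated with the log2 of their depth at Pearson's r = -0.58 (Spearman's rho = -0.59). For second rows r was 0.31 (rho = 0.22). These are correlations across sites of the same 6 libraries, in which level and depth come from the same reads.

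**Figure D3:**
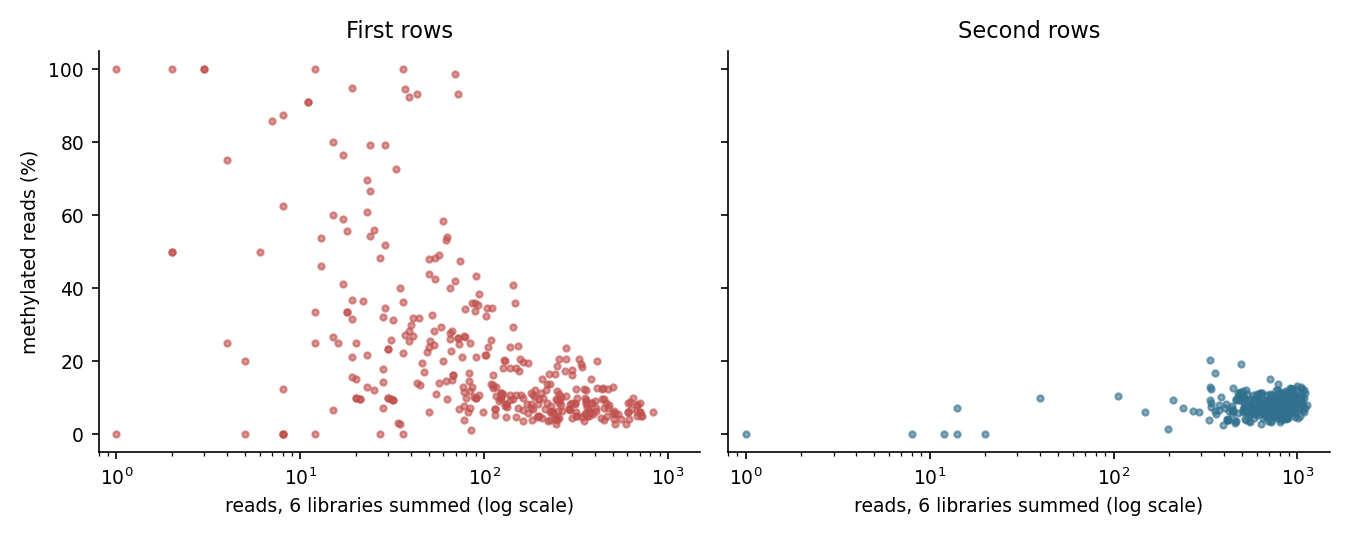
Methylation level (%) against reads summed over the 6 libraries (log scale) for each of 352 first rows (left) and 352 second rows (right). First rows over 50% all had 72 reads or fewer, and second rows reached at most 20.2%.

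Rows with a level over 50% were found among first rows alone, and each rested on few reads. Over all libraries, 36 first rows had a level over 50%, from 1 to 72 reads each, and 28 of them had 10 or more reads. Among first rows with 10 or more reads in a single library, 13, 0 and 5 were over 50% in the control libraries and 13, 3 and 3 in the butyrate libraries. No second row exceeded 50%, and 1 exceeded 20%, against 125 first rows. The second rows of the 36 CpGs had 199 or more reads and levels of 1.51% to 15.01%. Within single libraries, the 36 first rows together had 81.0%, 73.8% and 75.96% in the control libraries and 88.1%, 69.1% and 63.6% in the butyrate libraries, from 104 to 194 reads each. These rows were chosen for their level, so the values are a description. On rows as deep as their second rows, so few methylated reads would mostly give a low level. Whether all reads of these rows came from mitochondrial DNA was not tested.

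The high rows recurred in libraries that had no part in their choice. With 10 or more reads and a level over 50% in the controls, 21 first rows were chosen, with 71.6% of 384 reads methylated. In butyrate replicates 1, 2 and 3 the same rows had 80.2%, 59.6% and 51.1% of 177, 156 and 188 reads methylated, and their second rows 10.7%, 7.37% and 8.62%. Of these 21 rows, 15 were over 50% in the pooled butyrate libraries. In the other direction, 21 rows chosen in butyrate had 77.5%, 71.3% and 67.0% in control replicates 1, 2 and 3, and 18 of them were over 50% in the pooled controls. Their second rows had 10.1%, 7.42% and 8.47% in these controls. The first rows were thus above their second rows in all libraries of both readings.

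Single CpGs showed the contrast most clearly. The 6 described first, chosen after their values were seen, had the highest first-row levels among first rows with 30 or more reads. At position 13923 all 36 first-row reads were methylated, 6, 4 and 3 in the control libraries and 11, 5 and 7 in the butyrate libraries. Its second row, at 13924, had 945 reads and a level of 6.88%. At 12213, 68 of 69 first-row reads were methylated, with 100% in 5 libraries and 92.3% in butyrate replicate 1, while the second row had 6.01% of 948 reads. The CpG at 12234, close by, had 94.6% of 37 reads on the first row and 4.91% of 1039 on the second. At 13812, 10666 and 10702 the first rows had 93.1%, 92.3% and 93.02%, and the second rows 10.6%, 7.95% and 8.06%. At each of these 6 CpGs every library had the first row above the second.

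Among the 183 CpGs with 10 or more reads on each strand in all libraries, the median level over both strands was 8.32%, and the levels ran from 3.31% to 15.2%. The 4 highest were at 9308, 12589, 15450 and 6526, with 15.2%, 14.8%, 14.8% and 14.6%. They differed in which strand was high. At 9308 the second row had 23.4%, 13.5% and 14.5% in the control libraries and 32.6%, 18.7% and 21.9% in the butyrate libraries, from 43 to 75 reads, and the first row had 7.83% over all libraries. The CpG at 6526 was alike, with 19.3% on the second and 8.55% on the first row. At 15450 the first row had 41.0% and the second 11.3%, and at 12589 the first had 23.7% and the second 12.3%.

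The largest strand differences in this set were at 15323, 15450, 15347 and 15465, all within one short stretch and all with the first row higher. Second minus first rows was -33.8, -29.6, -26.1 and -25.4 points. At 15323 the first row had 64.3%, 45.5% and 47.1% in the control libraries and 40%, 40% and 27.8% in the butyrate libraries, from 10 to 20 reads. Its second row had 5.00% to 15.7% from 152 to 180 reads, below the first row in each library. The 4 lowest CpGs were at 94, 14906, 111 and 2919, with 3.31%, 3.65%, 3.90% and 3.91%. Of the 183 CpGs, 102 had the higher level on the first row and 81 on the second.

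Along the sequence, depth and level of the first rows changed in long stretches. In bins of 1000 bp, first rows had 4.22 to 90.9 reads per row and library, and pooled levels of 6.17% to 46.5%. Second rows had 73.1 to 153 reads and levels of 4.98% to 9.85%. The strands were most alike at 2001 to 3000, where first rows had 6.27% ± 0.502 in control cells and 6.81% ± 0.378 in butyrate (SD, n = 3) from 90.9 reads per row, and second rows 6.86% ± 0.982 and 7.69% ± 1.03. They were most unlike at 10001 to 11000. There the first rows, with 4.22 reads per row, had 45.97% ± 13.1 in control cells and 46.3% ± 19.3 in butyrate (SD, n = 3), and the second rows 6.85% ± 1.23 and 7.60% ± 1.55. At 13001 to 14000, first rows had 38.8% ± 3.52 in control cells and 29.9% ± 8.73 in butyrate (SD, n = 3) from 10.4 reads per row. At 8001 to 9000, with 9.74 reads per row, the order was the opposite, with 22.8% ± 7.49 in control cells and 37.4% ± 8.15 in butyrate (SD, n = 3).

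First rows exceeded second rows in all 6 libraries in 11 of the 17 bins, and second rows exceeded first rows in all 6 in 1 bin, at 2001 to 3000. The pooled level of first rows was the lower one in 3 bins, at 1001 to 2000, 2001 to 3000 and 5001 to 6000, where first rows had 46.1 reads per row or more. First-strand reads were nearly missing in places. At 21 CpGs the first row had fewer than 12 reads over all libraries, 115 in sum, and 10 of these CpGs lay between 4001 and 5500. The second rows opposite had up to 971 reads.

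**Figure D4:**
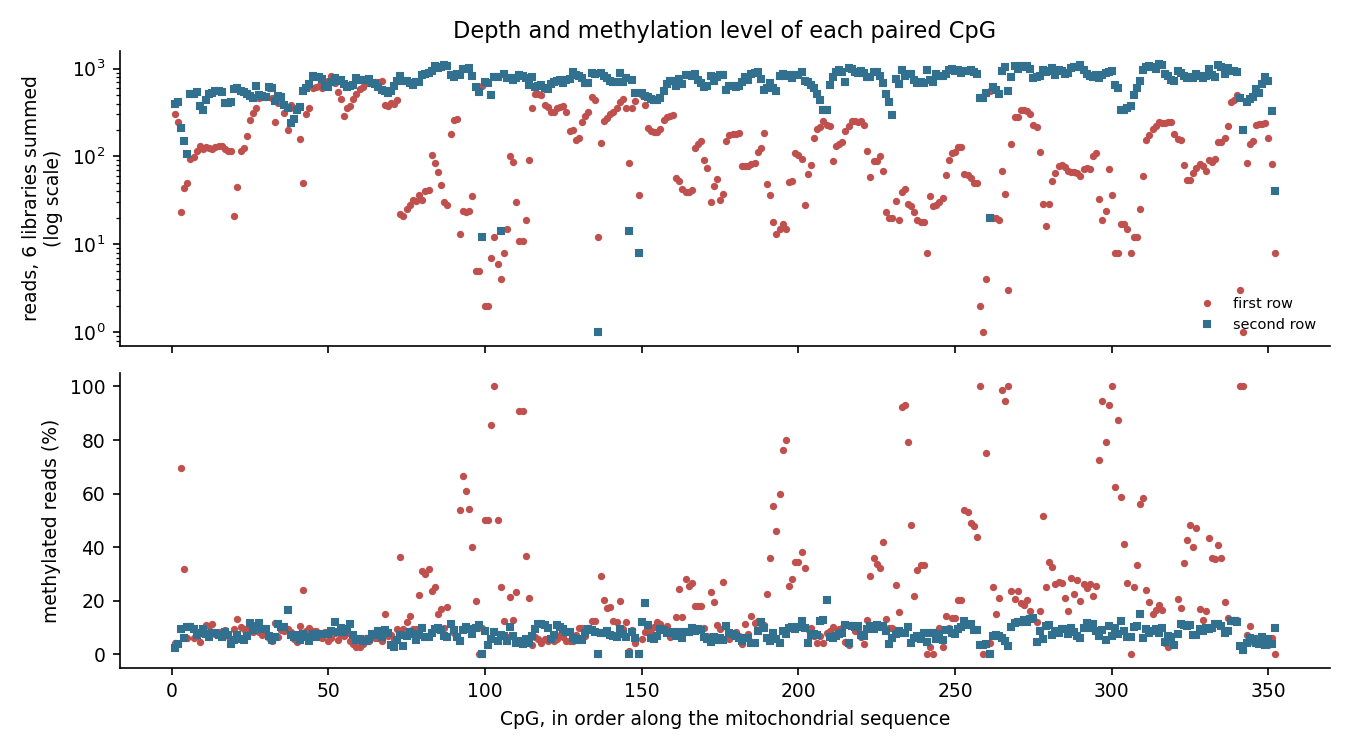
Reads summed over the 6 libraries (top, log scale) and methylation level (bottom, %) of the first and second rows of each of 352 paired CpGs, in their order along the mitochondrial sequence. First-row levels over 50% lie at rows of 72 reads or fewer, other shallow first rows reach down to 0%, and second rows stay between 0% and 20.2%.

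Neighbouring CpGs on one strand had like levels. Between consecutive CpGs at most 50 bp apart (245 pairs), r was 0.78 on first rows and 0.53 on second rows, and at 51 to 200 bp (97 pairs) it was 0.64 and 0.09. Close CpGs are often read by the same molecule, which these counts cannot separate. First and second rows of the same CpG had r = -0.01 (rho = 0.18) over 352 CpGs, and r = 0.34 (rho = 0.41) over the 120 CpGs whose first row had 200 or more reads. In nuclear CpGs with 10 or more reads on both strands, the r between strands was 0.797 to 0.809 per library. These were 12158 to 17467 of 12746590 nuclear pairs, read in single libraries, whereas the mitochondrial values pooled 6 libraries. An r also depends on the range of levels, and mitochondrial second rows reached at most 20.2%. The nuclear and mitochondrial r are therefore not directly comparable.

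The pattern along the sequence was shared between libraries. Across rows with 10 or more reads in every library, r between 2 libraries had a median of 0.64 (0.489 to 0.693) on 186 first rows and of 0.46 (0.316 to 0.596) on 345 second rows. Between pooled control and pooled butyrate libraries, over the wider set of rows with 10 or more reads in each group, r was 0.89 on 300 first rows and 0.65 on 346 second rows. Levels of single rows varied around the level of their library by more than counting error, with a dispersion of 2.41 to 3.63 on first rows and 1.46 to 2.07 on second rows, where 1 is counting error alone.

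The spacing of CpGs was examined as a feature that the choice of rows did not use. CpGs with another CpG within 10 bp (131 CpGs) had 8.26% ± 1.04 in control cells and 9.62% ± 1.65 in butyrate, and those with none within 50 bp (33 CpGs) had 7.95% ± 1.71 and 8.68% ± 1.93 (SD, n = 3). The difference of 0.627 points within libraries was positive in 5 of 6 libraries and did not pass the test (SD 0.636, exact permutation p = 0.0938, also 0.0938 after adjustment). It passed without the deepest 10% of rows (0.817 points, exact permutation p = 0.03125) and was -0.0857 points for CpGs within 20 bp against none within 30 bp. Isolated CpGs had shallower first rows (16.2 against 35.3 reads per row) and higher first-row levels, 15.4% against 10.3% in control.

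The comparison of treatment asked whether mitochondrial CpG methylation differed after butyrate. The level was 8.30% ± 1.27 in control cells and 9.40% ± 1.61 after butyrate (SD, n = 3 per group), which is 1.10 points higher and within the spread between replicates (two-sided exact permutation p = 0.5; 3 against 3 libraries cannot go below 0.1). First rows had 10.8% ± 1.96 and 12.2% ± 3.16 (exact permutation p = 0.6), and second rows 7.66% ± 1.13 and 8.60% ± 1.32 (SD, n = 3, exact permutation p = 0.5). The groups overlapped on both strands. The 95% Wilson intervals of the libraries did not overlap within either group (for example 10.9% to 11.5% in butyrate replicate 1 and 7.89% to 8.32% in butyrate replicate 2). These intervals cover counting error only.

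The treatment difference changed with the libraries included. Without butyrate replicate 1 it was 0.199 points over all rows, 0.219 points on second rows and -0.467 points on first rows. Without control replicate 2 it was 0.424 points over all rows. It was 1.75 points without butyrate replicate 2 and 1.69 points without control replicate 1. With each of the 6 libraries left out in turn, it ran from -0.467 to 2.45 points on first rows and from 0.219 to 1.51 on second rows. Lane was partly confounded with treatment, since lane 5 held butyrate replicates 1 and 3 but no control, and lane 6 the other 4 libraries. The difference within lane 6, from butyrate replicate 2 alone, was -0.202 points over all rows and -0.680 points on first rows.

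The relative depth of the mitochondrial rows did not separate the groups either. It was 93.8, 73.0 and 91.7 times the autosomal mean in the control libraries and 86.0, 98.5 and 105 times in the butyrate libraries. On the log2 scale the difference was 0.17 (exact permutation p = 0.4), and 0.05 without control replicate 2. Methylated reads per row, not scaled for library size, did not overlap between the groups. First rows had 3.39, 2.16 and 3.13 methylated reads in the control libraries and 3.99, 3.64 and 3.81 in the butyrate libraries, and second rows 9.45, 7.11 and 9.68 against 11.2, 9.87 and 10.6 (exact permutation p = 0.1 on each strand, the smallest that 3 against 3 libraries allow). Scaled by the CpG reads of each library, the groups overlapped on both strands (exact permutation p = 0.2 for first and 0.3 for second rows). Unmethylated reads per row were also higher in the butyrate mean on both strands, at 28.6 against 23.8 and 113 against 105, with overlap. The chromosome level did not overlap either, with 65.97% ± 0.104 in control cells and 66.5% ± 0.102 after butyrate (SD, n = 3, exact permutation p = 0.1). The strand difference (exact permutation p = 0.8) and the depth contrast of first rows (exact permutation p = 0.8) did not separate control from butyrate.

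Of the mitochondrial rows, 545 had at least 10 reads in each library. None was called by logistic regression, adjusted over all 76617 such rows of the genome by the Benjamini-Hochberg method, so that the count was 0 (0.00% of all tested rows were called). At an unadjusted p under 0.05 there were 51 rows, against 5.61% of rows in the genome. Of these, 41 were higher in butyrate, against 3.54% of all tested rows, and 10 were lower, against 2.07%. The count was 29 (5.32%) without butyrate replicate 1 and 30 (5.50%) without control replicate 2. In the same fits the shares of all tested rows were 5.51% and 5.48%. The count was 59 (10.8%) without butyrate replicate 2 and 61 (11.2%) without control replicate 1, where 5.69% and 5.65% of all tested rows passed. It was 39 (7.16%) without butyrate replicate 3 and 48 (8.81%) without control replicate 3, against 5.67% and 5.73%. By the quasi-binomial F test, 4 rows had an unadjusted p under 0.05, against 0.512% of all tested rows. The groups did not overlap, with butyrate higher, in 49 of the 545 rows, against 5.94% of all tested rows, and with butyrate lower in 7, against 3.89%. The median difference was 0.641 points over these rows and 0.707 points over all tested rows. The 76617 tested rows were a small and deep part of the 38416464 seen, since autosomal rows had a mean of 0.485 to 0.616 reads per library. They may not represent other nuclear rows, and the tested windows below share this limit.

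The rows with the smallest p among those higher in butyrate were the second row at 5471 and a row without a clear partner at 12585. At 5471 the level was 4.96%, 3.05% and 2.99% in the control libraries and 13.6%, 7.75% and 9.77% in the butyrate libraries, from 121 to 142 reads. The groups did not overlap there, and the pooled difference was 6.69 points (logistic regression, q = 0.594). At 12585 it was 16.1 points (q = 0.682). Among those lower in butyrate, they were the second row at 7538, with -4.04 points, and the first row at 1173, with -7.91 points, both with q = 0.812. At 7538, leaving out control replicate 3 gave -1.67 points, and leaving out control replicate 2 gave -6.08 points. None of the 4 passed the threshold.

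In windows of 500 bp, all 33 mitochondrial windows were tested from rows with 10 or more reads, with 266 to 4543 reads per library. The minimum was applied in each library, so that the rows summed in a window could differ between libraries. At 10501 to 11000 the control mean of 6.89% was that of second rows alone. The butyrate mean there was 8.66%, against 7.43% on second rows. Direction and overlap below come from these unequal rows. At q under 0.05 and a difference over 10 points, the thresholds of the study's methods, 0 were called, against 0.789% of 8874 windows in the genome. Here q was from the Benjamini-Hochberg method, whereas the study's methods used SLIM. The genome count of 70 changed to 4 of 8501 windows when only rows with 10 or more reads in all libraries were summed. It was 534 of 103361 from all rows and 0 with the quasi-binomial F test, while the mitochondrial count was 0 in each. In 4 windows the logistic regression gave q under 0.05, against 1.65% of all windows, with differences of 1.90 to 3.96 points. It takes all reads as independent, and with the quasi-binomial F test none of the 33 had an unadjusted p under 0.05, against 1.61% of all windows. The median difference was 1.001 points, against 0.749 points over all windows, and 27 of the 33 were higher in butyrate, against 60.1% of all windows. The windows come from the same 6 libraries, so this count does not stand apart from the difference over all rows. At an unadjusted logistic regression p under 0.05 there were 12 windows, against 13.3% of all windows. This count ran from 8 without butyrate replicate 1 or control replicate 2 to 19 without control replicate 1. In these fits 12.2%, 13.2% and 12.6% of all windows passed.

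The highest windows were at 12501 to 13000 and at 15001 to 15500, with pooled levels of 12.9% and 11.9%, and the lowest at 1 to 500 and at 16001 to 16500, with 5.10% and 5.24%. These levels mix strands. Over all paired rows, also those under 10 reads, first rows gave 2.67% to 45.6% of the reads of a window. Their share in the window levels could be less. At 10001 to 10500 and at 14001 to 14500 both group means were those of second rows alone. On second rows alone, the control mean was highest at 1501 to 2000 (9.73%) and lowest at 5001 to 5500 (3.94%), and the butyrate mean was highest at 12501 to 13000 (12.3%) and lowest at 16001 to 16500 (5.05%). The window at 12501 to 13000 also had the smallest p. It had 12.7%, 9.44% and 11.4% in the control libraries and 17.6%, 11.2% and 14.6% in the butyrate libraries, so that the groups overlapped (pooled difference 3.11 points, logistic regression q = 6.99e-07). The second smallest p was at 5501 to 6000, with a difference of 1.90 points (q = 0.000722) and overlapping groups. The window at 6001 to 6500 differed by 2.14 points (q = 0.00114), also with overlapping groups. In 2 windows the groups did not overlap, both with butyrate higher, against 7.60% of all windows. These were at 5001 to 5500 (2.13 points, q = 0.0855) and at 8501 to 9000. These 2 windows and that at 6001 to 6500 were named after their values were seen. At 8501 to 9000 the level was 12.5%, 7.57% and 8.45% in the controls and 13.2%, 13.6% and 13.6% in the butyrate libraries (3.96 points, q = 0.00254). On second rows alone, the group means there were 8.88% in control and 12.1% in butyrate. No window had butyrate lower without overlap, against 3.09% of all windows.

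**Figure D5:**
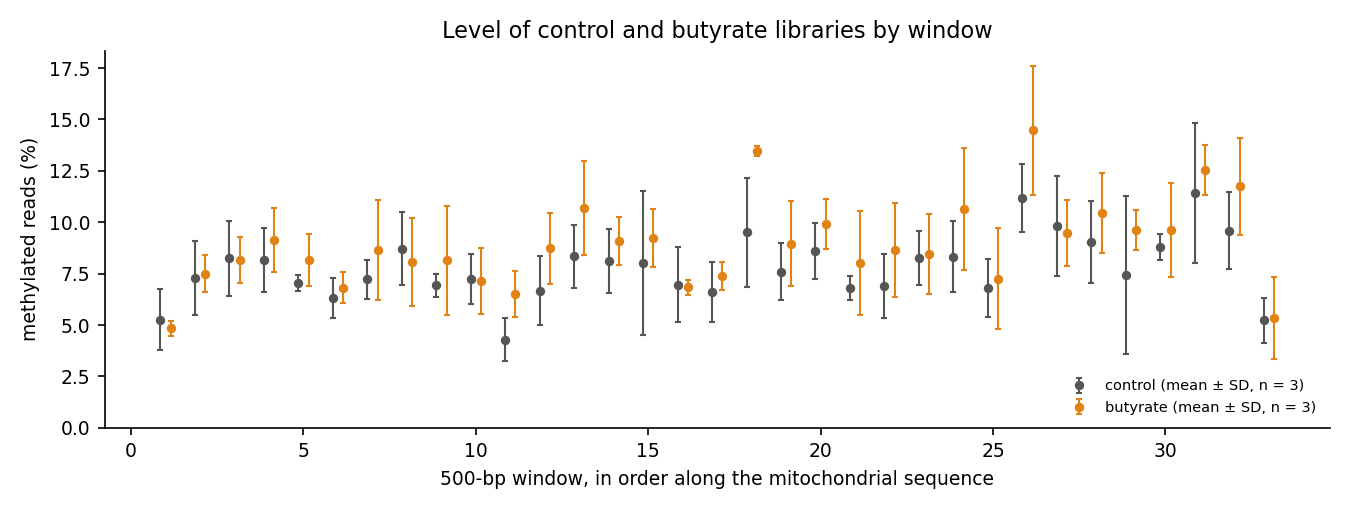
Methylation level (%) of the 33 mitochondrial windows of 500 bp in their order along the sequence, as mean ± SD of 3 control and 3 butyrate libraries, from rows with 10 or more reads in the given library. The groups overlapped in all windows but 2, and no difference reached 10 points.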

How the data were processed

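The 6 WGBS libraries, 3 per group, had 1 file each. The authors deposited counts of methylated and unmethylated reads per CpG cytosine, without a header and not normalized. Per the labels and the study's methods, reads were trimmed with Trim Galore 0.4.1, mapped to UMD3.1.1 with bowtie2 and called with Bismark at default settings. Read length and run type are not the same in the labels and the methods. The sources used here do not say how far bisulfite conversion went or whether duplicates were removed, and both bear on levels and depth. The third file column was taken as methylated from its values.

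Among rows with 12 or more reads in all, consecutive positions in runs of 2 or 4 were paired in order. A lone row was paired with a shallower neighbour where only 1 was seen. Nuclear CpGs were paired where p and p+1 were seen in some library but neither p-1 nor p+2. Exact permutation tests were two-sided, over the 10 splits of 3 and 3 or over sign flips within 6 libraries. Single rows (10 or more reads in all libraries) and 500-bp windows were tested by logistic regression, with Benjamini-Hochberg adjustment genome-wide. The quasi-binomial dispersion was at least 1. Named CpGs with 10 or more reads on each strand were the 4 highest, 4 lowest and 4 with the largest strand difference. Named rows had the smallest 2 p-values per direction, and named windows were the 2 highest, 2 lowest and 2 with the smallest p. Other windows were named after their values were seen. The rows, groupings and comparisons were chosen with earlier results of these data known. Functions were tested on simulated data. Python 3.11.15, NumPy 2.4.6, SciPy 1.17.1, pandas 2.3.3 and Matplotlib 3.10.9 were used.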

Additional observations from a re-analysis of the deposited data

How the results depend on the processing

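The pairing rule, the depth classes of each strand, the strand difference by first-row depth, the use of paired rows alone and the scaled methylated reads were set after seeing the data. Among 61 alternatives that kept the 6 libraries or 1 lane, 59 kept the result on the same side of its threshold or moved it by less than the spread between replicates. Of the other 2, the spacing difference passed without the deepest 10% of rows (0.817 points, exact permutation p = 0.03125), and the rise of second rows with depth missed it between the deepest and shallowest 10% (1.54 points, exact permutation p = 0.0625). With CpGs within 20 bp against none within 30 bp, the spacing difference was -0.0857 points. This change of sign counted among the 59, as did that of the treatment difference in lane 6 (-0.202 points over all rows). Treatment comparisons by exact permutation could not cross the threshold. Their smallest exact permutation p was 0.1, or 0.25 with the replicate block or in lane 6. For them, staying on the same side was fixed in advance, and they made up a large part of the 59. When 1 library was left out, sign-flip tests could not go below 0.0625, so that none passed. The values then ran from -3.59 to -2.87 points for the strand difference and from 1.98 to 2.06 for the log2 depth ratio. They ran from -21.8 to -18.1 for the depth contrast of both strands, from -31.2 to -24.8 for first rows and from 0.966 to 1.22 for second rows. The difference from chromosomes was -57.8 to -57.1 points, from chromosomes at 10 or more reads -58.4 to -57.7, and from scaffolds -53.2 to -52.5. The difference from the nuclear strand difference was -3.90 to -3.21 points. From the shallowest to the third class of first-row depth, the strand difference was -32.3 to -25.9, -18.6 to -15.5 and -3.05 to -2.17 points. The count of called rows and windows was 0 under all alternatives run. Replicate numbers were shared between groups, and deviations of same-numbered libraries correlated at 0.165, -0.101 and 0.179. The same-numbered control was the best match for butyrate replicates 1 and 3, whereas butyrate replicate 2 correlated best with control replicate 3 (0.158). These weak correlations do not show whether the numbers pair the libraries. With the replicate block the treatment difference was 1.10 points over all rows, 1.35 on first rows and 0.941 on second rows (exact permutation p = 0.25 each, the smallest for 3 pairs), and 0.17 for log2 relative depth (p = 0.5, exact permutation). First rows with few reads limit the precision of single sites.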
